A study of Mus musculus with 4 samples.

Results

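The nuclear genes of oxidative phosphorylation were followed through the cell classes of the newborn mouse kidney. Members were the matrix rows of both single-cell RNA libraries whose symbol starts with Nduf, Uqcr, Cox4 to Cox8 or Atp5, or is Sdha, Sdhb, Sdhc or Sdhd, without the pseudogene ending -ps. The rule found 93 of 31053 rows, which carry 92 symbols, because Atp5o is listed under 2 Ensembl identifiers. One of these (ENSMUSG00000022956) held the counts and the other (ENSMUSG00000116933) had 0 UMIs in both libraries. By their known place, 36 members are subunits of complex I, 8 are complex I assembly factors, 4 belong to complex II, 8 to complex III, 12 to complex IV, 8 are tissue- or condition-restricted complex IV isoforms, and 17 belong to complex V. The rule did not use expression, and the 13 protein genes of mitochondrial DNA (mt- genes) were set beside the members.

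The study compared newborn Six2Cre mice with Six2CreTet2/3f/f mice, in which Tet2 and Tet3 are floxed. Both groups carry the Six2Cre transgene, which drives Cre recombinase in Six2-positive nephron progenitors and so reaches the nephron lineage they form, but not the ureteric bud, stroma, endothelium or blood cells. Each genotype had 1 whole-kidney single-cell library, called control (Six2Cre) and floxed (Six2CreTet2/3f/f) here. The whole-genome bisulfite samples of sorted Six2-positive cells were not analysed here. The labels give a single replicate per genotype and not the number of animals behind it, so no p-value is given anywhere.

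Oxidative phosphorylation passes electrons from NADH through complex I, or from succinate through complex II, to ubiquinone, then through complex III and cytochrome c to complex IV, which reduces oxygen. Complexes I, III and IV pump protons across the inner mitochondrial membrane, and complex V, the ATP synthase, uses the gradient to make ATP. Complexes I, III, IV and V mix nuclear subunits with subunits from mitochondrial DNA, whereas complex II is wholly nuclear. In the kidney, the proximal tubule and the thick ascending limb of the loop of Henle reabsorb most of the filtered salt and are rich in mitochondria.

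RefSeq promoter windows (GRCm38.p6, 250 bases before to 50 after the start site) were found by symbol for 74 of the 92 member symbols, in 79 windows. Members that code for the same subunit but differed in level along the nephron (Atp5g1, Atp5g2 and Atp5g3), the 2 other members with a match to the ESRRA letters (Ndufb4 and Sdhd) and the 1 member past the size rule downward in proximal tubule-like cells (Cox6b2) are shown 5′ to 3′. Capitals mark matches, on either strand, to the letters GCGC and TGCGC with any 1 base between them (bound by NRF1), CCGGAAGT (GABPA), AAGATGGC (YY1) and TNAAGGTCA (estrogen-related receptors such as ESRRA).
Atp5g1, chr11:96075582-96075881, minus strand: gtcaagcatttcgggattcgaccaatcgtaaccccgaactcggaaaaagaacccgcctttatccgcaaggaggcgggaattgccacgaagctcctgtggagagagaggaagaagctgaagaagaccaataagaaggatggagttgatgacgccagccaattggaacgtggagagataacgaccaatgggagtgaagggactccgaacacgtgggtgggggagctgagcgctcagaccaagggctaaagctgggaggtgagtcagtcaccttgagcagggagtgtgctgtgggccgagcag
Atp5g2, chr15:102670998-102671297, minus strand: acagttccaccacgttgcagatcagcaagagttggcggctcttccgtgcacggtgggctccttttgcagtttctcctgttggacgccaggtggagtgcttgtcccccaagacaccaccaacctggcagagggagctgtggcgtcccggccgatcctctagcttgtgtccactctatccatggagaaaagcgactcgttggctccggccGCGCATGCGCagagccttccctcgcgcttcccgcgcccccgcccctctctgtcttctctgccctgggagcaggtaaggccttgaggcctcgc
Atp5g3, chr2:73911277-73911576, minus strand: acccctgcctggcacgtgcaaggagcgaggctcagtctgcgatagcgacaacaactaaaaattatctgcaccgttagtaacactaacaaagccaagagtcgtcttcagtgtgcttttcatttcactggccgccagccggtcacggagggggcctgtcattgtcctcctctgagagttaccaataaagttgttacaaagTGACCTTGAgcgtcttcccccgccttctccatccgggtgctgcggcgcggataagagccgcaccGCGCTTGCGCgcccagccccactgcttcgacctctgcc
Ndufb4, chr16:37654319-37654618, minus strand: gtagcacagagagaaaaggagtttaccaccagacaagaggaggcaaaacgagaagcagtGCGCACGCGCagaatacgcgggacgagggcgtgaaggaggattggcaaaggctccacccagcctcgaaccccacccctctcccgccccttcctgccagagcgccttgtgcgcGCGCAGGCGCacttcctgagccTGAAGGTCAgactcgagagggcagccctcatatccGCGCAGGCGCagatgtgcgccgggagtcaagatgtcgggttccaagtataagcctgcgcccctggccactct
Sdhd, chr9:50603800-50604099, minus strand: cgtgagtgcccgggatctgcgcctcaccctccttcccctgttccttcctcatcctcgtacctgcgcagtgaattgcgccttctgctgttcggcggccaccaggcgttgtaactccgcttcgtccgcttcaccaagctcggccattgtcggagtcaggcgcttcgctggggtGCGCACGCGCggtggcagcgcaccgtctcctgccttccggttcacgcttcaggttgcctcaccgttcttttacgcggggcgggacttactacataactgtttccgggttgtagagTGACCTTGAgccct
Cox6b2, chr7:4753045-4753344, minus strand: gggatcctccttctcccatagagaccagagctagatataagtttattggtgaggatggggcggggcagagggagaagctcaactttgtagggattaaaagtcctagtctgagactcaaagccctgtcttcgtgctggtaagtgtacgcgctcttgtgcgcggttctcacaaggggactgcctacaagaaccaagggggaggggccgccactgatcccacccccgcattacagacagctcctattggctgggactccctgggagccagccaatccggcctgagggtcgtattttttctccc
The NRF1 letters occurred in 20 of the 79 member windows (25.3%), against 4.6% of all 32851 windows and 10.8% of the 7487 windows of genes with at least 25 CPM in a nephron class. The YY1 letters occurred in 12.7% of member windows, 2.75% of all windows and 4.77% of expressed ones. For the GABPA letters the shares were 6.33%, 3.89% and 8.6%, so members did not exceed expressed genes. The ESRRA letters were in 3 member windows (3.8%), those of Atp5g3, Ndufb4 and Sdhd, against 1.28% of all windows and 0.695% of expressed ones. Atp5g3 held both NRF1 and ESRRA letters, Atp5g2 held the NRF1 letters alone, and Atp5g1 and Cox6b2 held none of the 4. A match is a description of these letters in this window and not a measured binding site.

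The deposited matrices held 25736 control and 22543 floxed barcodes, with 197745868 and 115427704 UMIs, and 174 barcodes occurred in both. After filtering, 19493 control and 14393 floxed cells remained, with medians of 5987 and 4768 UMIs. Each UMI stands for 1 captured molecule read near its 3′ end, so levels were not divided by gene length. UMIs were summed per class and library and given as counts per 1000000 UMIs of that class (CPM). Ratios carry exact 95% intervals that cover counting error only. A member counted as past the rule of size when it had at least 25 CPM in the higher class and its interval lay wholly beyond 1.5-fold, in both libraries for contrasts between classes. Between 79 and 83 of the 93 rows reached 25 CPM in a given contrast, and the others were mostly restricted isoforms and assembly factors. Cell classes were rebuilt from markers without using any member or mt- gene. Marker sums were higher in the tubule classes than in progenitor-like cells. In proximal tubule-like cells the 13 listed markers summed to 9812 CPM in control and 9189 CPM in floxed cells, against 280 and 182 CPM in progenitor-like cells. The loop and distal tubule-like class was led by Slc12a1 and Umod of the thick ascending limb. Its 10 markers summed to 6411 and 6142 CPM there, against 252 and 261 CPM in progenitor-like cells. All 13 proximal tubule markers were detected, meaning at least 1 UMI in the class sum, in proximal tubule-like and in progenitor-like cells. Of the loop and distal list, 10 of 10 were detected in control and 9 of 10 in floxed cells (Pvalb at 0), in both its own class and progenitor-like cells. The detection counts thus do not tell these classes apart. The loop and distal tubule-like class also held 7913 and 7187 CPM of the proximal tubule list, of which 7669 and 6983 CPM were Fxyd2, a Na,K-ATPase regulator that the distal nephron shares. As a check of the genotype labels, Tet3 stood at 91.4 CPM in control and 41.4 CPM in floxed progenitor-like cells and Tet2 at 28.4 and 23.1 CPM. Both were also lower in the floxed library in stroma-like cells, which Six2Cre does not reach, with Tet3 at 51.2 and 40.5 CPM and Tet2 at 43.8 and 39.4 CPM. These 3′ tags need not lie in the deleted exons, so they do not measure the deletion.

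The share of RNA given to the members was low in progenitors, changed little in early nephron cells and was highest in tubules. Summed over the 93 rows, it was 27687 CPM in control and 25408 CPM in floxed progenitor-like cells. Committed nephron-like cells stood at 30277 and 27275 CPM and podocyte-like cells at 30449 and 27769 CPM. In proximal tubule-like cells the sums were 44585 and 39615 CPM, and in loop and distal tubule-like cells 62384 and 53811 CPM. Over progenitor-like cells, the proximal tubule-like sum was thus 1.61-fold higher in control (interval 1.60 to 1.62) and 1.56-fold higher in floxed cells (1.55 to 1.57), and the loop and distal tubule-like sum 2.25-fold (2.24 to 2.26) and 2.12-fold higher (2.11 to 2.13). Per cell, the members gave 264 and 175 UMIs in progenitor-like, 593 and 385 in proximal tubule-like and 1304 and 729 in loop and distal tubule-like cells. Tubule cells were also deeper, with median totals of 9306 and 7365 UMIs in proximal tubule-like and 15417.5 and 9705 in loop and distal tubule-like cells against 7717 and 6287.5 in progenitor-like cells. With every cell thinned to 1000 UMIs, which weights cells equally and leaves each gene's expected share as it was, the median member ratio of proximal tubule-like over progenitor-like cells was 0.74 in control and 0.59 in floxed cells on the log2 scale, beside 0.68 and 0.65 unthinned. The part of depth in the class differences was not tested.

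**Figure D1:**
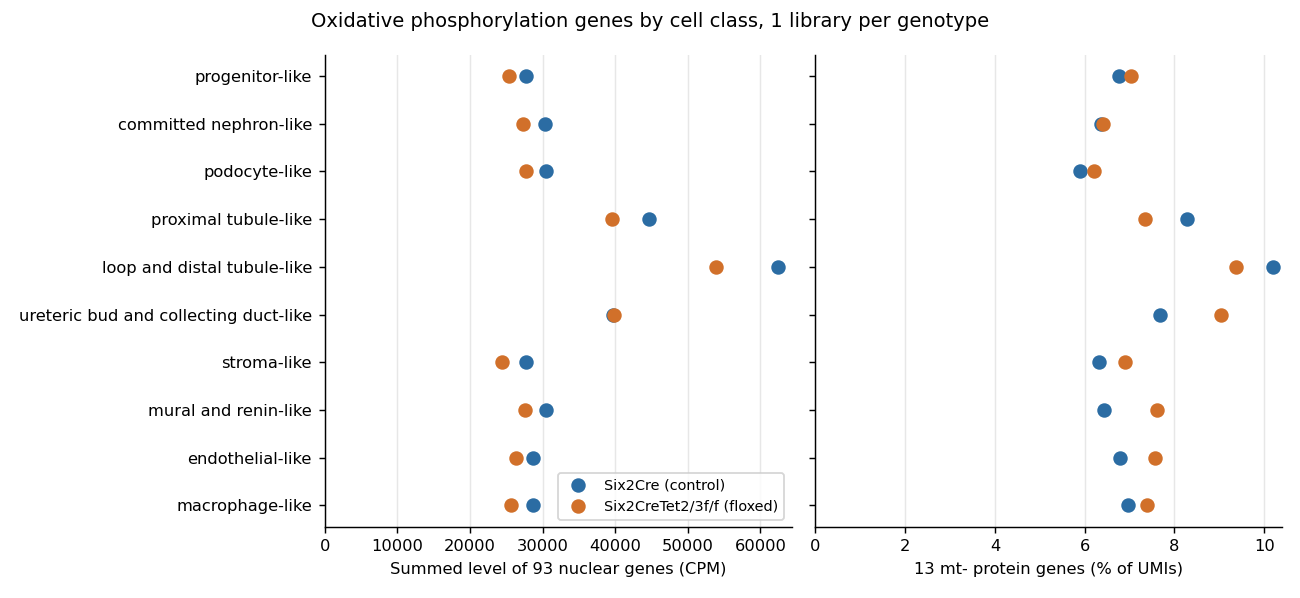
Summed level of the 93 nuclear genes in CPM (left) and share of UMIs from the 13 mt- protein genes in percent (right) for 10 cell classes, 1 point per library. The loop and distal tubule-like class is highest in both panels and both libraries, at 62384 and 53811 CPM and at 10.2% and 9.38% of UMIs.

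High levels were not limited to the nephron lineage. The class with ureteric bud and collecting duct markers (collecting duct-like here), which Six2Cre does not reach, stood at 39701 and 39866 CPM, near the proximal tubule-like level. An unnamed cluster with mixed markers (Calb1, Slc12a3, Ret, Atp6v1g3) stood at 43345 and 39458 CPM. The intercalated list scored highest in that cluster, followed by the ureteric bud and collecting duct list. Slc12a3 is on the loop and distal tubule list, so the cluster is not counted as lying outside the nephron lineage. Stroma-like cells, at 27656 and 24360.2 CPM, lay close to progenitor-like cells: the ratio was 0.999 (0.996 to 1.00) in control and 0.959 (0.954 to 0.963) in floxed cells. Shallow clusters outside the nephron also had high levels: an erythroid-like cluster with medians of 1567 and 1477.5 UMIs stood at 46483 and 32864 CPM, an unnamed cluster led by endothelial genes (1486 and 1321 UMIs) at 38467 and 32897 CPM, and 1 of the 2 macrophage-like clusters (1574 and 1397 UMIs) at 36274 and 31125 CPM. The part of their depth in these levels was not tested. The other erythroid-like cluster, led by Hbb-bt and Hbb-bs with medians of 4667 and 4089 UMIs, was low, at 16814 and 16268 CPM. As whole classes, endothelial-like, macrophage-like and mural and renin-like cells lay between 25601 and 30509.9 CPM.

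In committed nephron-like cells, which express Lhx1, Fgf8, Cdh6 and Osr2 as renal vesicles and their derivatives do, 0 of 79 members rose or fell past the rule, where 8.13% of all tested genes were higher and 4.05% lower. The member median on the log2 scale was 0.18 in control and 0.10 in floxed cells, beside 0.099 and 0.053 for all genes. Single members ranged from -0.79 for Cox6b2 to 0.47 for Cox5a, which encodes a common complex IV subunit (mean log2 ratio of both libraries). Cox5a was at 397 and 400.2 CPM in progenitor-like and 538 and 565 CPM in committed nephron-like cells, 1.35-fold and 1.41-fold higher. Podocyte-like cells likewise had 0 of 80 members past the rule, where 11.7% of genes were higher and 3.54% lower, with member medians of 0.13 and 0.15 and all-gene medians of 0.13 and 0.11. Podocyte-like cells came from 2 clusters, 1 of which had 314 control but only 13 floxed cells. Without it the counts stayed at 0.

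In proximal tubule-like cells 35 of 81 members were past the rule upward and 1 downward, where 19.4% of all genes were higher and 12.7% lower. The member median was 0.68 in control and 0.65 in floxed cells, against -0.042 and -0.14 for all genes, and 77 of the 81 mean ratios were above 0. By complex, the members that rose were 7 of 8 in complex III, 6 of 12 common members in complex IV, 2 of 4 in complex II, 13 of 36 in complex I, 6 of 15 tested in complex V and 1 of 5 tested assembly factors. The count rests on a fold near the threshold. It was 23 with barcodes up to 50% mitochondrial UMIs clustered again and 16 at Leiden resolution 0.5. With cells thinned to 1000 UMIs it was 17, and with a 2-fold rule it was 4. Each of these smaller sets lay within the 35. The shares of all genes above belong to the main setting, and none is given for these other settings.

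The 5 highest mean ratios in proximal tubule-like cells belonged to Ndufaf6, Ndufa6, Atp5b, Uqcr10 and Ndufv3. Ndufaf6, a complex I assembly factor, rose from 16.2 and 15.7 CPM (control and floxed) in progenitor-like to 40.7 and 50.7 CPM in proximal tubule-like cells, which is 2.51-fold (interval 2.20 to 2.86) and 3.22-fold higher (2.67 to 3.90). For Ndufa6, an accessory complex I subunit, the levels were 359.5 and 308 CPM in progenitor-like and 733 and 798 CPM in proximal tubule-like cells. In loop and distal tubule-like cells Ndufa6 stood at 498 and 448 CPM and was not past the rule there, so its highest level among nephron classes was in the proximal tubule-like class. Atp5b, the catalytic beta subunit of ATP synthase, went from 578 and 515 CPM to 1280.2 and 1222 CPM. Uqcr10, a small complex III subunit, stood at 425 and 328 CPM in progenitor-like and 989.6 and 715 CPM in proximal tubule-like cells, 2.33-fold and 2.18-fold higher. Ndufv3, an accessory subunit of the NADH-binding module, was 2.51-fold higher in control (297 against 118 CPM) and 2.00-fold higher in floxed cells (215 against 107 CPM). Like Ndufa6, Ndufv3 was lower in loop and distal tubule-like cells, at 216 and 174 CPM, and not past the rule there.

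Loop and distal tubule-like cells had the broadest increase: 66 of 82 members were past the rule upward and 0 downward, where 17.8% of all genes were higher and 11.4% lower. The member median was 1.13 in control and 1.10 in floxed cells, against -0.013 and -0.098 for all genes. The members that rose were 30 of 36 in complex I, 3 of 4 in complex II, 7 of 8 in complex III, 11 of 12 in complex IV, 13 of 15 tested in complex V and 2 of 6 tested assembly factors, Ndufaf4 and Ndufaf6. With a 2-fold rule 41 members remained, for which no share of all genes is given. As summed levels, complex III rose 2.53-fold in control (2.50 to 2.56) and 2.39-fold in floxed cells (2.35 to 2.43), and complex I 1.97-fold (1.95 to 1.99) and 1.98-fold (1.97 to 2.00). The ratio was higher for complex III than for complex I in both libraries, by more than the counting error, which is the only error these intervals cover. In proximal tubule-like cells the same sums rose 1.71-fold and 1.63-fold for complex III and 1.58-fold and 1.57-fold for complex I.

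**Figure D2:**
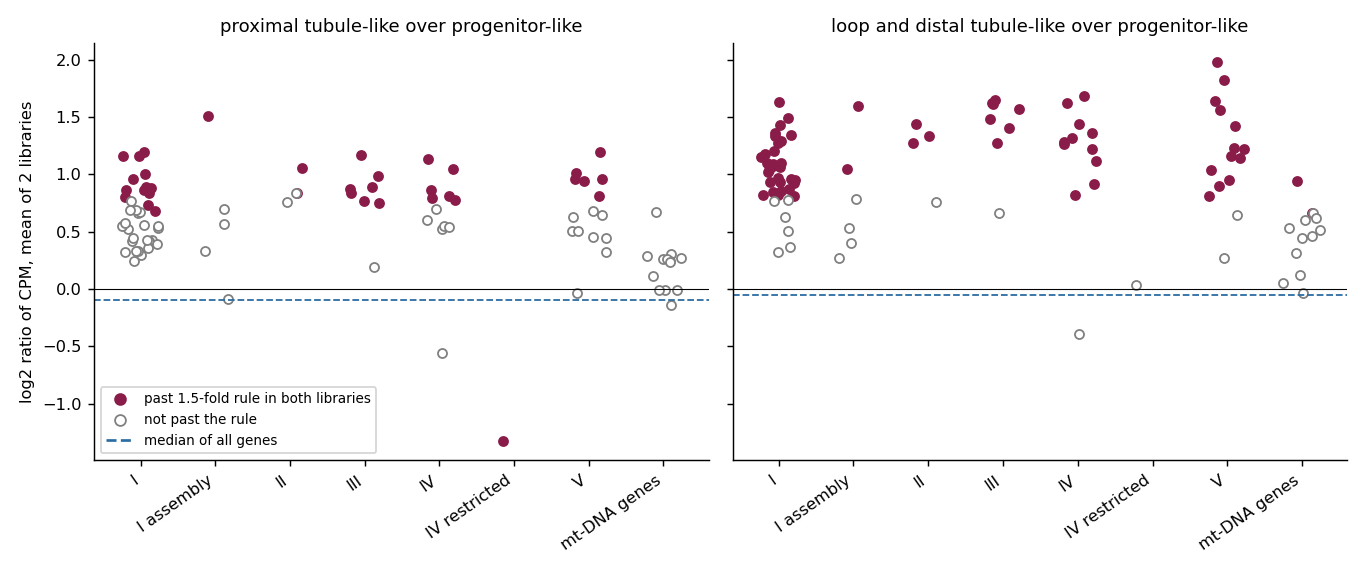
Log2 ratio of CPM over progenitor-like cells, mean of the 2 libraries, 1 point per member with at least 25 CPM, grouped by complex, with the mt- protein genes at the right. Filled points are past the 1.5-fold rule in both libraries, and the dashed line is the median of all genes; 35 members are filled upward at the left and 66 at the right.

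The 5 highest ratios in loop and distal tubule-like cells were those of Atp5g1, Atp5b, Cox5a, Uqcrb and Atp5g3. Atp5g1 (chr11:96072793-96075694) encodes subunit c, which forms the rotor ring of ATP synthase, and it rose from 482 and 495 CPM to 1974 and 1888 CPM, 4.10-fold in control (3.99 to 4.21) and 3.81-fold in floxed cells (3.69 to 3.94). Atp5b reached 2117 and 1750.3 CPM, 3.66-fold and 3.40-fold above progenitor-like cells. Its partner in the catalytic head, the alpha subunit gene Atp5a1, went from 558 and 554 CPM to 1908 and 1404 CPM. Cox5a stood at 1339.7 and 1222 CPM, 3.37-fold and 3.05-fold higher. Uqcrb, the ubiquinone-binding subunit of complex III, went from 303 and 262 CPM to 925 and 840.4 CPM. Atp5g3 went from 362 and 333 CPM to 1275 and 916 CPM, with the lower of these fold changes, 2.75, in the floxed library.

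Within the complexes, abundant members differed from each other. In complex IV, Cox4i1 had the highest mean CPM over the nephron classes, at 1495 and 1489.8 CPM in progenitor-like and 2716.5 and 2565 CPM in loop and distal tubule-like cells, followed by Cox8a, at 1060.4 and 816 CPM and then 2869.6 and 1980.2 CPM. Uqcrh, the hinge subunit of complex III, had the highest complex III level in progenitor-like cells, 840.0 and 772 CPM, and was the 1 member of that complex not past the rule in either tubule class, with ratios of 1.12 and 1.17 in proximal tubule-like and 1.68 and 1.49 in loop and distal tubule-like cells. In complex I, Ndufb9 went from 412 and 417 CPM in progenitor-like to 670.1 and 663 CPM in proximal tubule-like and 1017 and 1013 CPM in loop and distal tubule-like cells. Ndufb8 reached 755 and 660.5 CPM in proximal tubule-like cells, near its loop and distal tubule-like levels of 778 and 730.2 CPM. Among the 7 core subunits of complex I, Ndufs7, named after its values were seen, was the 1 past the rule in proximal tubule-like cells, and all 7 were past it in loop and distal tubule-like cells. Ndufs1, the largest core subunit, likewise named afterwards, had the lowest core level, 41.2 and 41.3 CPM in progenitor-like cells, and reached 141 and 116 CPM in loop and distal tubule-like cells.

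The 4 genes of succinate dehydrogenase (complex II), which also serves the TCA cycle, summed to 390.3 of the 27687 CPM in control progenitor-like cells. In progenitor-like cells Sdha, the flavoprotein subunit, was at 95.9 and 108 CPM and Sdhb, the iron-sulfur subunit, at 160.0 and 155 CPM. The membrane anchors Sdhc and Sdhd were at 74.5 and 84.7 CPM and at 59.9 and 69.3 CPM. In proximal tubule-like cells Sdhb (311 and 256 CPM) and Sdhd (134 and 133 CPM) were past the rule. In loop and distal tubule-like cells Sdha (270.3 and 243 CPM), Sdhb (390.5 and 372 CPM) and Sdhd (166 and 184 CPM) were. Sdhc was 2.03-fold higher in control but 1.41-fold higher in floxed loop and distal tubule-like cells and did not pass in both. Assembly factors of complex I were low throughout: Ndufaf8 had the highest mean, at 83.0 and 65.3 CPM in progenitor-like cells. Ndufaf4 rose 3.18-fold and 2.89-fold in loop and distal tubule-like cells, from 37.7 and 45.0 CPM to 119.8 and 130.1 CPM.

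Genes for alternative forms of 1 subunit differed from each other. Atp5g1, Atp5g2 and Atp5g3, whose promoters are shown above, encode the same mature subunit c behind different import sequences. Atp5g2 (chr15:102662868-102671047) was the highest of the 3 in progenitor-like cells, at 738 and 720.4 CPM, and had about the same level in proximal tubule-like (690.5 and 738 CPM) and loop and distal tubule-like cells (944 and 820.4 CPM). Its ratios were 0.935 and 1.02 in the former and 1.28 and 1.14 in the latter, inside 1.5-fold in both libraries. Atp5g1, at 990.0 and 885 CPM in proximal tubule-like cells, stood above Atp5g2 there, so the order of these 2 genes in progenitor-like cells was turned in both libraries. Atp5g3 (chr2:73908447-73912464) was below Atp5g2 in progenitor-like cells. In loop and distal tubule-like cells it was above it.

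Cox6b2 (chr7:4751792-4753094), the isoform of the Cox6b subunit best known from testis, was the 1 member that fell past the rule. Its levels were 48.2 and 43.0 CPM in progenitor-like, 28.0 and 24.9 CPM in committed nephron-like, 27.0 and 24.4 CPM in podocyte-like and 19.9 and 16.6 CPM in proximal tubule-like cells. The proximal tubule-like level was 2.42-fold lower in control (2.11 to 2.79) and 2.59-fold lower in floxed cells (2.09 to 3.25). In loop and distal tubule-like cells it was back at 52.7 and 41.5 CPM, and in stroma-like cells it was at 77.9 and 75.3 CPM. In committed nephron-like cells it narrowly missed the rule in the floxed library (interval 1.497 to 2.003-fold lower), and it passed there without cycling cells, with cells thinned to 1000 UMIs, and with 3 other scalings. Its common counterpart Cox6b1 was at 537 and 478 CPM in progenitor-like and 921 and 732 CPM in proximal tubule-like cells. Cox7a2l, which joins complexes III and IV into supercomplexes, was lower in committed nephron-like (1.40-fold and 1.39-fold), proximal tubule-like (1.55-fold and 1.39-fold) and loop and distal tubule-like cells (1.28-fold and 1.35-fold) than in progenitor-like cells, without passing the rule. It went from 677 and 669 CPM to 484 and 479.7 CPM in committed nephron-like and 438 and 480.3 CPM in proximal tubule-like cells. The other forms of that subunit differed from it. Cox7a2 reached 887 and 619 CPM in proximal tubule-like cells from 570.4 and 416 CPM. Cox7a1, the heart and skeletal muscle form, stood at 1.42 and 1.06 CPM in progenitor-like, 14.4 and 15.1 CPM in proximal tubule-like and 22.7 and 9.78 CPM in loop and distal tubule-like cells, under the 25 CPM minimum.

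**Figure D3:**
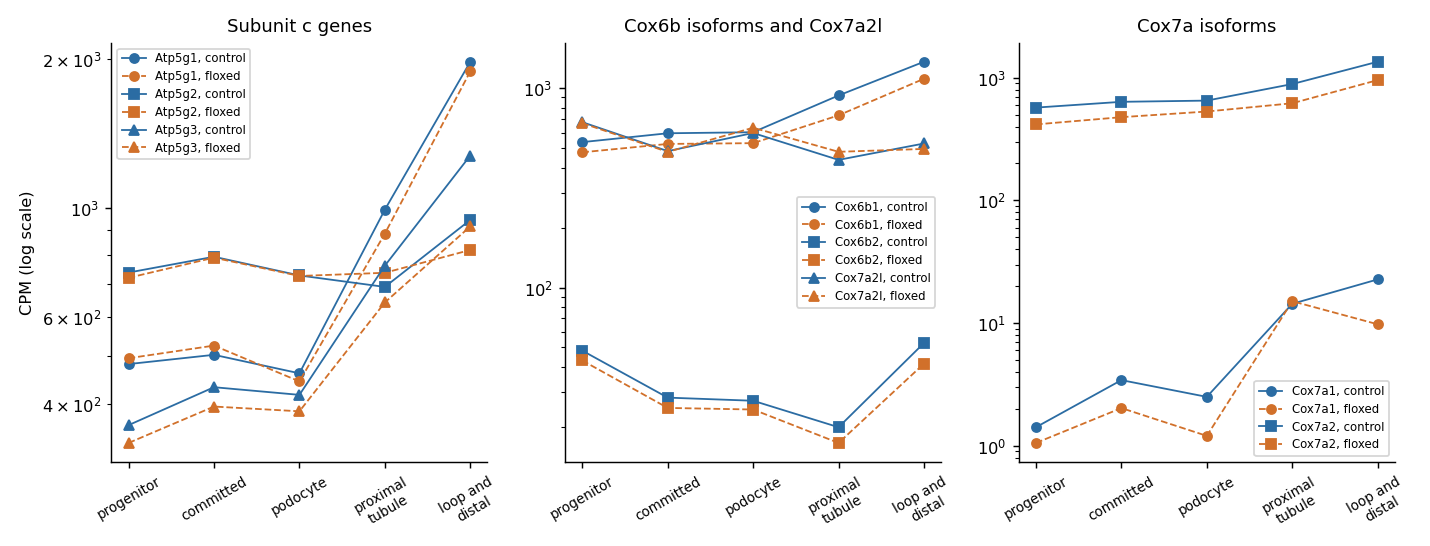
CPM (log scale) in the 5 nephron classes for the subunit c genes (left), Cox6b1, Cox6b2 and Cox7a2l (middle) and Cox7a1 and Cox7a2 (right), solid lines for the control and dashed lines for the floxed library. Atp5g1 crosses above Atp5g2 in the proximal tubule-like class, at 990.0 against 690.5 CPM in control, while Cox6b2 falls to 19.9 and 16.6 CPM.

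Of the restricted complex IV isoforms, 2 were high in 1 class outside the nephron. Cox4i2 (chr2:152753916-152765039), the hypoxia-responsive form of Cox4, stood at 213 and 224 CPM in mural and renin-like cells, a cluster led by Ren1, Rergl and Akr1b7. In the other 9 classes Cox4i2 was at 20.5 CPM or less. Ndufa4l2 (chr10:127509274-127517154), a hypoxia-induced relative of the complex IV subunit Ndufa4, stood at 580 and 714 CPM in that same cluster. Ndufa4 itself was at 709 and 618 CPM in progenitor-like and 1372 and 1133 CPM in loop and distal tubule-like cells. The next highest level of Ndufa4l2 was 36.9 and 50.2 CPM in stroma-like cells, 12.3-fold and 11.4-fold above progenitor-like cells. In stroma-like cells Ndufa4l2 and Cox6b2 were the 2 of 81 members past the rule upward, where 10.6% of genes were, and 0 were past it downward, where 5.7% were. The other 4 restricted isoforms had few UMIs: over whole matrices Cox8c had 4 control and 0 floxed UMIs, Cox6a2 6 and 7, Cox7b2 15 and 2, and Cox8b 16 and 19.

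The 13 mt- protein genes differed less between classes than the nuclear members. They gave 6.76% and 7.02% of UMIs in progenitor-like cells, 6.37% and 6.41% in committed nephron-like, 5.90% and 6.22% in podocyte-like, 8.27% and 7.33% in proximal tubule-like and 10.2% and 9.38% in loop and distal tubule-like cells. Over progenitor-like cells the sum was 1.22-fold (1.22 to 1.23) and 1.04-fold higher in proximal tubule-like cells, and 1.51-fold and 1.34-fold higher (1.33 to 1.34) in loop and distal tubule-like cells. None of the 13 passed the rule in proximal tubule-like cells, where 19.4% of all genes were higher and 12.7% lower. In loop and distal tubule-like cells 2 passed it upward, where 17.8% of all genes were higher and 11.4% lower. That count is near the share of all genes. The 2 were mt-Nd1 and mt-Cytb. mt-Nd1, a complex I subunit, went from 4617 and 4154 to 9732 and 7306 CPM. mt-Cytb, the mitochondrial subunit of complex III, went from 7664 and 7183 to 12543 and 11010.2 CPM. The ratio of mt- to nuclear member UMIs was 2.44 and 2.76 in progenitor-like cells, 1.86 and 1.85 in proximal tubule-like and 1.63 and 1.74 in loop and distal tubule-like cells. The filter that removed barcodes above 15% mitochondrial UMIs bears on these values; 3350 control and 3151 floxed barcodes lay between 15% and 50%.

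The members also differed within the proximal tubule-like class. Its cells were split into 4 equal bins by the share of UMIs from the 13 proximal tubule markers, which hold no member. Of the 9812 and 9189 CPM of these markers in the class, 3314 and 2979 CPM were Fxyd2, which the distal nephron shares. The part of Fxyd2 in the bins was not tested. From the lowest to the highest bin the summed members stood at 33487, 38476, 44506 and 58610.0 CPM in control (231 or 232 cells each) and at 31148, 34628, 39454 and 49222 CPM in floxed cells (153 or 154 each). The ratio of mt- to nuclear member UMIs was 2.03, 1.93, 1.84 and 1.75 in control and 2.00, 1.93, 1.90 and 1.71 in floxed cells. Over the same bins cytosolic ribosomal protein genes went from 25.4% to 17.4% of UMIs in control and from 25.1% to 18.7% in floxed cells, and median UMIs per cell from 7934 to 10641 and from 6719.5 to 9296. The part of these 2 measures in the member levels was not tested.

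**Figure D4:**
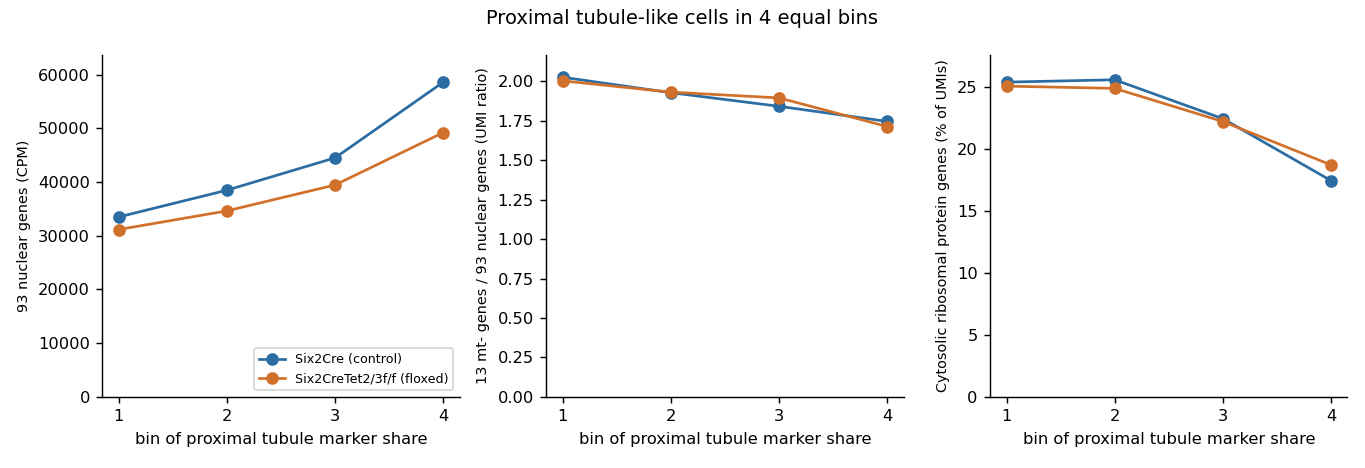
Proximal tubule-like cells in 4 equal bins of marker share: summed nuclear members in CPM (left), UMI ratio of 13 mt- genes to the 93 members (middle) and cytosolic ribosomal protein genes in percent of UMIs (right), 1 line per library. In both libraries the members are higher in each next bin, up to 58610.0 and 49222 CPM, while the other measures end lower than they begin.

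Other mitochondrial genes were read from lists that had been fixed from known pathways and hold no member. Among all tested genes 19.4% were higher and 12.7% lower in proximal tubule-like cells, and 17.8% and 11.4% in loop and distal tubule-like cells, and each count is to be read against these. In proximal tubule-like cells 9 of 12 fatty acid oxidation genes were past the rule upward (medians 1.17 and 1.16, all genes -0.042 and -0.14), 7 of 18 TCA cycle and pyruvate dehydrogenase genes (0.73 and 0.73), and 6 of 11 electron carriers (1.16 and 1.05). Among genes picked after their values were seen, Acadm, the medium-chain acyl-CoA dehydrogenase, went from 51.0 and 59.2 to 390.3 and 419.7 CPM. Cyc1, the complex III cytochrome that the symbol rule leaves out, went from 137 and 133 to 361 and 310.15 CPM. In loop and distal tubule-like cells the counts were 7 of 12, 15 of 18 and 6 of 11, and Cycs, cytochrome c itself, went from 169 and 175 to 918 and 908 CPM. Mitochondrial ribosomal proteins moved little by comparison, with 5 of 78 higher in proximal tubule-like cells (medians 0.37 and 0.24) and 10 of 78 higher in loop and distal tubule-like cells (0.40 and 0.39). Cytosolic ribosomal proteins went the other way, with medians of -0.39 and -0.28 and of -0.60 and -0.56. Glycolysis genes were past the rule upward for 4 and downward for 1 of 17 rows in proximal tubule-like cells, a share near that of all genes, and upward for 12 in loop and distal tubule-like cells.

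Among 16 regulators of mitochondrial biogenesis, several stayed under 25 CPM in every nephron class of both libraries. Ppargc1a, the coactivator PGC-1alpha, was past the rule in both tubule classes, with levels of 3.50 and 3.17 CPM in progenitor-like, 58.4 and 38.4 CPM in proximal tubule-like and 211 and 128 CPM in loop and distal tubule-like cells. The nuclear receptors Esrra and Esrrg were past it in loop and distal tubule-like cells, at 29.7 and 29.1 CPM for Esrra (from 5.32 and 5.19) and 36.6 and 25.1 CPM for Esrrg (from 1.81 and 1.76). Both were under the 25 CPM minimum in proximal tubule-like cells, Esrra at 24.8 and 20.3 CPM (4.66-fold and 3.90-fold above progenitor-like cells) and Esrrg at 12.98 and 14.6 CPM (7.17-fold and 8.28-fold). Gabpa in both libraries, Nrf1 in the floxed library and Twnk in the control library stayed under the minimum in these classes and could not pass. Tfam, which packages mitochondrial DNA, Tfb2m and Yy1 were not past the rule in either class. Nrf1 was at 25.2 and 18.8 CPM in progenitor-like and 17.2 and 16.4 CPM in proximal tubule-like cells, and Tfam at 52.5 and 63.0 and then 43.0 and 46.6 CPM.

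Between genotypes, no member passed the rule in any of 10 classes, in either direction. In progenitor-like cells 0 of 80 tested members were past it, where 2.02% of all genes were higher and 1.43% lower in the floxed library; in proximal tubule-like cells 0 of 81 were, where 1.99% were higher and 2.39% lower; in committed nephron-like cells 0 of 81, where 1.57% were higher and 0.867% lower; in stroma-like cells 0 of 81, where 1.58% were higher and 1.89% lower. The counts were also 0 of 80 in podocyte-like (1.32% of genes higher, 1.51% lower), 0 of 83 in loop and distal tubule-like (1.67% and 2.27%), 0 of 81 in collecting duct-like (3.33% and 2.46%), 0 of 82 in mural and renin-like (0.827% and 0.62%), 0 of 79 in endothelial-like (1.43% and 1.73%) and 0 of 80 in macrophage-like cells (2.09% and 3.43%). Without cycling cells 1 member, Atp5k, a small ATP synthase subunit, was past it downward in proximal tubule-like cells. Most members were bounded inside 1.5-fold either way: the whole interval lay there for 78 of 80 in progenitor-like, 79 of 81 in committed nephron-like, 77 of 81 in proximal tubule-like and 78 of 83 in loop and distal tubule-like cells, beside 84.4%, 87.8%, 72.5% and 62.3% of all genes. The width of an interval depends on the number of UMIs, and the other genes were not matched to the members by level. The shares of all genes here and in the next sentences are thus not a like comparison. Smaller differences were common. In progenitor-like cells the interval lay wholly below 1 for 43 members and wholly above it for 11 of 80, where 27.4% and 37.9% of all genes did. The counts were 48 and 17 of 81 in proximal tubule-like cells, where 32.2% and 26.5% of all genes did, and in collecting duct-like cells 24 and 38, where 29.2% and 30.4% did. The median floxed over control ratio on the log2 scale was -0.059 in progenitor-like (all genes 0.051), -0.15 in proximal tubule-like (all genes -0.061), -0.15 in loop and distal tubule-like (all genes -0.032) and -0.14 in stroma-like cells (all genes 0.013). In progenitor-like cells this median lay between -0.13 and -0.045 over the alternative settings. In collecting duct-like cells it was 0.076 (all genes 0.025). Summed over all members, the floxed level differed from control by -8.23% in progenitor-like, -11.1% in proximal tubule-like, -13.7% in loop and distal tubule-like and -11.9% in stroma-like cells, and by 0.417% in collecting duct-like cells.

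The differences were not the same for all complexes or classes. Complex III sums were lower in the floxed library in each of the 10 classes, with log2 ratios between -0.35 and -0.17. The values included progenitor-like cells (2846 and 2412 CPM, 1.18-fold lower, 1.16 to 1.20), macrophage-like cells (2944 and 2306 CPM, 1.28-fold lower) and collecting duct-like cells (4645 and 4130.05 CPM, 1.12-fold lower). In collecting duct-like cells, which Six2Cre does not reach, complex I differed by 6.52%, complex II by 14.8% and complex V by 0.761%, against -5.95%, 6.73% and -7.46% in progenitor-like cells. In stroma-like cells, also outside its reach, the values were -10.2%, -1.11% and -10.9%. Whether these differences themselves differ between classes could not be tested. Over the 10 classes, complex IV sums lay between -0.29 and -0.02, complex I between -0.16 and 0.09, and complex I assembly factors between -0.11 and 0.16. A constant sign was thus not particular to complex III. Sums of the cytosolic ribosomal protein genes, which are no members, were also lower in the floxed library in each class, between -0.20 and -0.006. Of 88 members with a ratio in all 10 classes, 62 had ratios of both signs, 22 were lower in the floxed library in each class and 4 were higher in each. No such counts over all genes are given, so these are not read as a trait of the members. The following examples were chosen after their values were seen, for their constant sign, and support nothing. Uqcrq, a small complex III subunit, ranged from -0.68 to -0.26 over the 10 classes, Uqcr11 from -0.61 to -0.15, Cox7a2 from -0.52 to -0.30 and Atp5e, the epsilon subunit of ATP synthase, from -0.55 to -0.30. The assembly factor Ndufaf2 ranged from 0.33 to 0.75 and Ndufab1, the mitochondrial acyl carrier protein, from 0.12 to 0.46. All classes share the same 2 libraries, so these values are not separate samples, and a difference between genotypes and a difference between 2 libraries cannot be told apart.

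**Figure D5:**
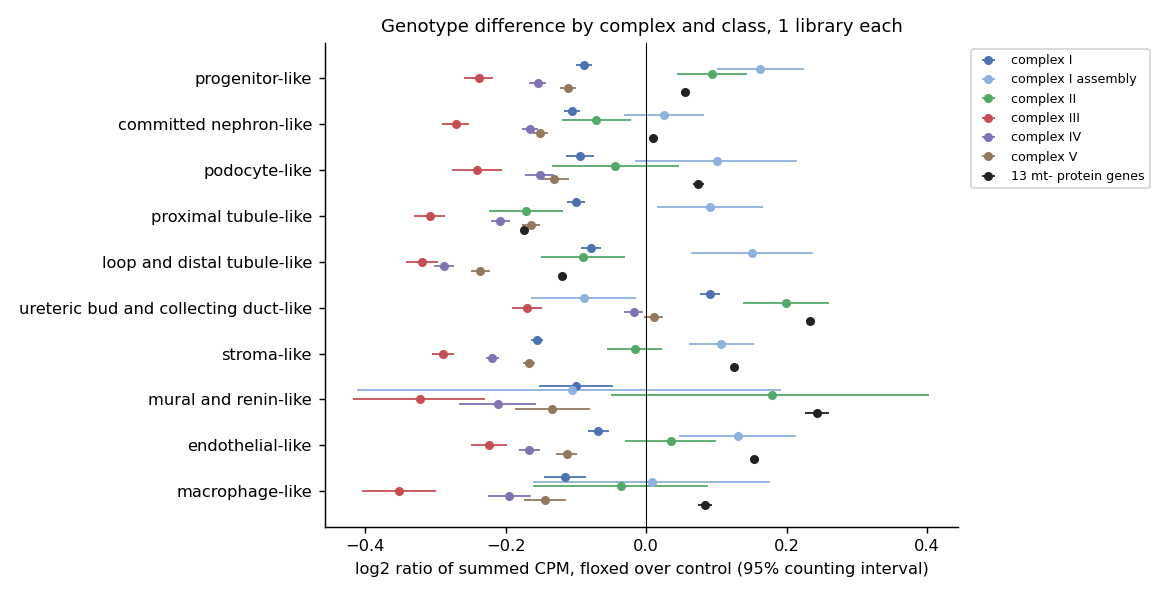
Log2 ratio of summed CPM, floxed over control, for 6 groups of members and the 13 mt- protein genes in 10 cell classes; bars are 95% counting intervals and each point compares 1 library with 1 library. Complex III lies below 0 in each class, between -0.35 and -0.17, and so does complex IV, between -0.29 and -0.02.

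For some mt- genes the libraries differed by more. The whole interval lay inside 1.5-fold for 8 of 13 in progenitor-like and 10 of 13 in proximal tubule-like cells. Of all genes, 84.4% and 72.5% did. The genes named next are those that differed most. mt-Nd3 was lower in the floxed library in all 10 classes, with log2 ratios from -1.95 to -1.21, and stood at 1764 against 617 CPM in progenitor-like and 2536 against 654 CPM in proximal tubule-like cells. mt-Atp8 was higher in all 10, with ratios from 0.97 to 1.80, at 169 against 422 CPM in progenitor-like cells. The log2 ratios of mt-Nd4l ran from 0.47 to 1.32, those of mt-Nd5 from 0.47 to 1.19 and those of mt-Nd6 from 0.44 to 1.47. The 13 genes summed were 3.89% higher in floxed progenitor-like cells and fell by 11.3% in floxed proximal tubule-like cells. Other measures differed between the libraries too. The 6 erythroid markers, all detected in both libraries in progenitor-like cells, summed to 1272 CPM in control and 4195 CPM in floxed progenitor-like cells and to 2186 and 5453 CPM in stroma-like cells. The 10 dissociation stress genes summed to 3656 and 1855 CPM in progenitor-like, 3717 and 1779.5 CPM in stroma-like and 2682 and 3075 CPM in proximal tubule-like cells. The 13 proximal tubule markers summed to 280 and 182 CPM in progenitor-like cells. Their part in the genotype values was not tested.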

How the data were processed

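Per the labels' protocols, newborn kidneys were dissociated, freed of dead cells and run on 10x Chromium 3′ kits. The authors deposited whole-number UMI counts for each gene and barcode, 1 matrix per library. Cell Ranger 6.0.2 and mm10 are named in the submitters' processing notes, while the matrices carry version 6.0.1, per the file headers. Which gene annotation was used, and how reads of pseudogene copies were assigned, is not given in the sources used here.

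Kept barcodes had at least 1000 UMIs, 500 genes and under 15% mitochondrial UMIs (21188 control, 15645 floxed). Scrublet's automatic threshold marked 2228 control and 0 floxed barcodes, so the 8% with the highest scores were left out of each library (1695 and 1252). Both libraries were clustered together with scanpy 1.11.5 (2000 variable genes, 30 components, 15 neighbours, Leiden resolution 1, igraph 0.11.9). Members, mt-, ribosomal, haemoglobin and sex-linked genes were left out of the variable genes, so the class contrasts of the members do not rest on the members. A cluster was named when a marker list averaged at least 0.5 (log2 over all other cells), 0.5 above the next such list. It still stayed unnamed if too few markers of that list were detected, or if its leading genes held more markers of another list. Shallow clusters with no marker of that list among their leading genes stayed unnamed too. In all, 1662 control and 1178 floxed cells stayed unnamed. Free RNA was not removed.

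UMIs were summed per class and library; CPM, ratios and exact conditional binomial 95% intervals were computed with numpy 2.4.6 and scipy 1.17.1. Medians use genes with at least 5 CPM. Code was tested on simulated data. Members named with values were the 2 with the highest mean CPM per complex, up to 5 highest and 5 lowest among those past the rule in each contrast, isoform pairs, Sdh genes and mt- genes; other names were chosen after their values were seen. The members and the lists were chosen with earlier results of these data known. Alternatives covered filters, doublets, resolution, cycling cells, depth, scaling and the size rule.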

Additional observations from a re-analysis of the deposited data

How the results depend on the processing

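No paired analysis was possible because each genotype had 1 library, and leaving out a replicate was not possible for the same reason. Settings that differ from the main one left no direction reversed, and 279 values were the same while 61 moved. The cause was not tested. The 3 settings that regroup clusters (podocyte-like without cluster 20, progenitor-like cluster 19 alone, committed nephron-like cluster 7 alone) were added after seeing the data. The proximal tubule-like count of 35 higher members became 23 with up to 50% mitochondrial UMIs, 16 at Leiden resolution 0.5, 17 with cells thinned to 1000 UMIs and 4 with a 2-fold rule, and lay between 4 and 47 over all settings; the 1 lower member was Cox6b2 in each. The loop and distal tubule-like count of 66 became 41 with a 2-fold rule. No share of all genes is given beside the counts at these other settings. The count of lower members went from 0 to 1, Cox6b2, in committed nephron-like cells without cycling cells, with thinned cells, and with CPM outside mt- genes, CPM outside mt-, ribosomal and haemoglobin genes, or TMM factors, and in podocyte-like cells without cycling cells and with the last 2 scalings. Without cycling cells 1 member was lower in the floxed library in proximal tubule-like cells.

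The median member log2 ratio of proximal tubule-like over progenitor-like cells (main 0.68 in control and 0.65 in floxed) was, in control and floxed, 0.61 and 0.61 with under 10% mitochondrial UMIs, 0.59 and 0.53 with under 50%, 0.77 and 0.77 with no doublets left out, 0.53 and 0.50 at Leiden resolution 0.5, 0.71 and 0.68 at resolution 2, 0.84 and 0.66 without cycling cells, 0.74 and 0.59 thinned, 0.68 and 0.63 with progenitor-like cluster 19 alone, 0.53 and 0.53 outside mt-, ribosomal and haemoglobin genes, 0.72 and 0.79 with TMM, 0.64 and 0.63 with no minimum level, and 0.67 and 0.61 as means of per-cell shares. In control it was 0.71 with the 10000 deepest barcodes and 0.70 outside mt- genes. CPM outside mt-, ribosomal and haemoglobin genes shifted all ratios of this contrast by -0.12 in control, and TMM shifted them by 0.14 in floxed cells.

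The median floxed over control ratio in proximal tubule-like cells (main -0.15) was -0.086 with under 10% mitochondrial UMIs, -0.16 with under 50%, -0.13 at resolution 0.5, -0.12 at resolution 2, -0.20 without cycling cells, -0.14 with the deepest barcodes, -0.23 thinned, -0.17 outside mt- genes and outside mt-, ribosomal and haemoglobin genes, -0.10 with TMM and -0.22 per cell. In progenitor-like cells (main -0.059) it was -0.066 with under 10% mitochondrial UMIs, -0.086 with no doublets left out, -0.083 at resolution 0.5, -0.086 without cycling cells, -0.045 with the deepest barcodes, -0.10 thinned, -0.086 with cluster 19 alone, -0.10 outside mt-, ribosomal and haemoglobin genes, -0.13 with TMM and -0.090 per cell. In the mural and renin-like class, with 247 control and 115 floxed cells, 53 of 82 members were bounded inside 1.5-fold between libraries.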
